A study of Mus musculus with 9 samples.

Results

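The secretory cells of the airway lining were followed through 10 genes in the lungs of irradiated and control mice. The genes were Scgb1a1, Scgb3a1, Scgb3a2, Cbr2, Aldh1a1, Muc5b, Muc5ac, Bpifa1, Bpifb1 and Reg3g, listed by name for what their products do. They were chosen with earlier results of these data known. Of the 10 genes, 9 were matched to a probe, among 20787 genes represented by a probe in the whole data set. Scgb3a2, a secretoglobin of club cells, was not matched and was not analysed here. The mice were 10-week-old C57BL/6 males, anesthetized with zoletil and rompun for irradiation. The RNA of 4 arrays was labeled control lung and that of 5 arrays irradiated left lung. Neither dose nor region nor time is labeled for any array, so the irradiated arrays may differ in all of these. According to the methods of the study, RNA of replicate experiments was pooled before labeling, so each array is a pool and p-values measure the spread between arrays. The RNA came from tissue of mixed cells, in which fewer cells of a type and less RNA per cell cannot be told apart.

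Club cells line the small airways and secrete secretoglobins, small proteins of the airway lining fluid. The gel-forming mucins come from secretory cells of the airway lining, goblet cells among them, and from submucosal glands. Secretory cells and glands also release proteins that act on bacteria, among them the BPI-fold proteins and the lectin REG3G. Club cells hold enzymes that break down carbonyl compounds, aldehydes and inhaled chemicals. In the mouse, BPIFA1, BPIFB1, SCGB3A1 and MUC5B are found mainly in the larger, upper airways, whereas SCGB1A1 and CYP2F2 reach down to the terminal bronchioles. Club cells can also renew themselves and the ciliated cells after injury.

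Each array had 43020 spots for genes, with 39429 different probes. Between 72.8% and 89.1% of the spots were well above background per array and no spot was saturated. Values are log2 intensities after quantile normalization, a unit without an absolute scale, and the number of arrays limits the precision. All 9 genes measured were well above background on all 9 arrays. Irradiated array 1 stood apart from the others in these genes, so results that rest on it are given with and without it. A further 8 arrays formed 4 pairs, each of a control and an irradiated array at neighboring places of the scanner image; irradiated array 1 had no partner. Pairs are called scan pairs, and differences within them are given beside the differences between the groups. The share of all genes that were lower in all 4 pairs was not counted, so counts of pairs are a description. Fits with the scan pair as a fixed block leave irradiated array 1 out, those with a random block keep it, and the fit with the replicate number as a block leaves irradiated array 5 out.

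None of the 9 genes passed the test between the groups (limma, adjusted p under 0.05 over all 39303 probes tested), against 0.394% of all genes. Without adjustment, 2 of the 9, Cbr2 and Bpifa1, had a p under 0.05, against 12% of all genes. In every one of the 9 genes the values of the groups overlapped, whereas 4.96% of all genes had groups that did not overlap. The difference was below 0 for 8 of the 9 genes, against 48.6% of all genes, and it was above 0 for Muc5ac. Its median was -0.78 on the log2 scale, against 0.01 over all genes. With each array left out in turn, the median ranged from -0.99 (without control array 4) to -0.42 (without irradiated array 1). With irradiated array 1 left out, no gene passed either, and 5 had a p under 0.05 before adjustment, against 10.9% of all probes in that fit.

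The largest departures of these genes lay on 1 array. On irradiated array 1, 5 of the 9 genes, Scgb3a1, Muc5b, Bpifa1, Bpifb1 and Reg3g, were at least 2-fold below the lowest control array, against 1.55% of all genes on that array. On each of irradiated arrays 2 to 5, 0 of the 9 genes were, against 0.409%, 0.577%, 0.779% and 0.712% of all genes. Scgb1a1, Cbr2 and Aldh1a1 on irradiated array 1 lay within the range of the control arrays.

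**Figure D1:**
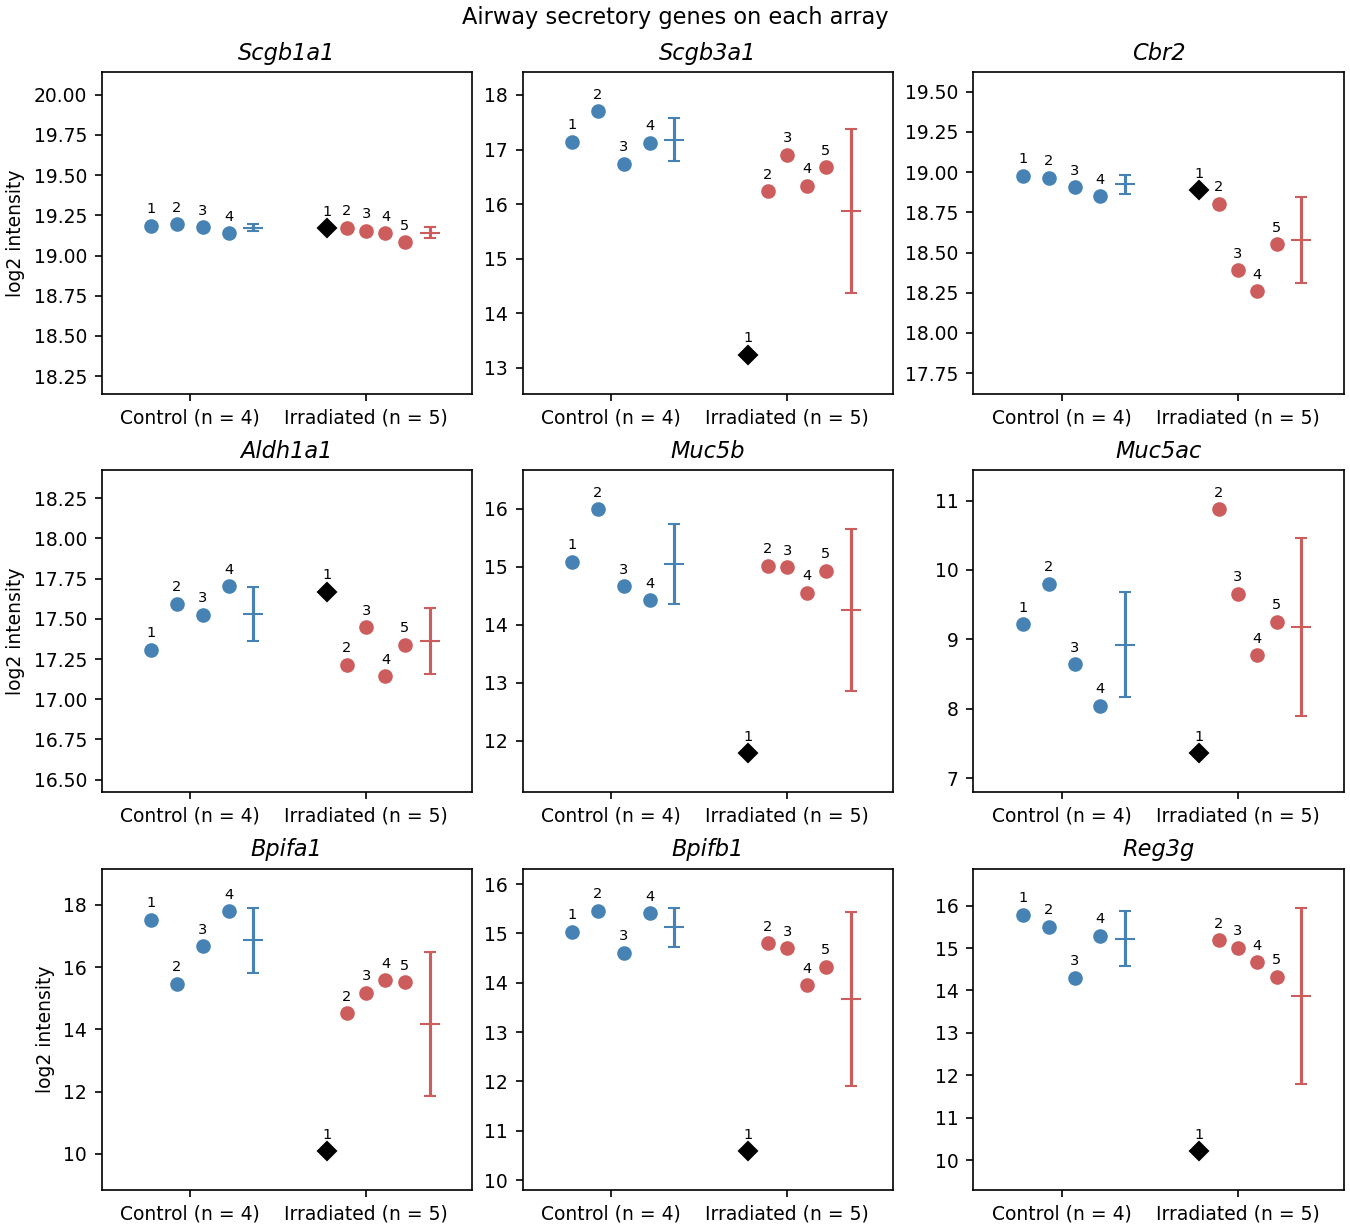
Log2 intensity (vertical axis, quantile normalized, a separate scale in each panel) of the 9 genes on the 4 control and 5 irradiated arrays. Points are arrays with their replicate number, the black diamond is irradiated array 1, and bars beside the points are the mean and the SD; the diamond is far below all other arrays for Scgb3a1, Muc5b, Bpifa1, Bpifb1 and Reg3g.

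Since Scgb3a1, Bpifa1, Bpifb1 and Reg3g were low together on that array, the DNA just before their start sites is shown, as given by RefSeq for the mouse assembly GRCm38.p6. Of the 9 genes, 6 have an entry there; Muc5b, Muc5ac and Scgb1a1 are named only. Each line holds 250 bases that end at the base before a listed start, 5′ to 3′ in the direction of transcription. Capitals mark motifs searched by letters on both strands, and none of the motifs overlapped.
Scgb3a1, chr11:49663345-49663594, plus strand: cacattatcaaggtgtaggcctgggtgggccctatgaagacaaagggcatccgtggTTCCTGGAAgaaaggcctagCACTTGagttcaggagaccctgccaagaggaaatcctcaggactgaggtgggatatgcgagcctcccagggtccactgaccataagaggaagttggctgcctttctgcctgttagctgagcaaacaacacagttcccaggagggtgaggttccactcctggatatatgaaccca
Bpifa1, chr2:154142630-154142879, plus strand: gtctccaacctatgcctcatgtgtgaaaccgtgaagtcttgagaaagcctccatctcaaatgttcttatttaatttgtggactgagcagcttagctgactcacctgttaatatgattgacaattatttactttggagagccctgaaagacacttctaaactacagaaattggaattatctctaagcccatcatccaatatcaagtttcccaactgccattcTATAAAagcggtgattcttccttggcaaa
Bpifb1, the first listed start, chr2:154190568-154190817, plus strand: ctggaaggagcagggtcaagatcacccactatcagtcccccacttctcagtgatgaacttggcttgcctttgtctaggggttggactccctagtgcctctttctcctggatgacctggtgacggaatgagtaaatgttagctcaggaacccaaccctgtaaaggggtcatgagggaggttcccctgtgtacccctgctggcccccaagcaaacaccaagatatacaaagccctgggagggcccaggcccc
Bpifb1, the other listed start, chr2:154200130-154200379, plus strand: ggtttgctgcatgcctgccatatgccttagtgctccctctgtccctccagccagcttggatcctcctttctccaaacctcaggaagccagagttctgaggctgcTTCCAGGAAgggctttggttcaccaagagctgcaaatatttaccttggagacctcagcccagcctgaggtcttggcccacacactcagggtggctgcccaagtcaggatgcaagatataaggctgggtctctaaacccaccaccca
Reg3g, chr6:78468875-78469124, minus strand: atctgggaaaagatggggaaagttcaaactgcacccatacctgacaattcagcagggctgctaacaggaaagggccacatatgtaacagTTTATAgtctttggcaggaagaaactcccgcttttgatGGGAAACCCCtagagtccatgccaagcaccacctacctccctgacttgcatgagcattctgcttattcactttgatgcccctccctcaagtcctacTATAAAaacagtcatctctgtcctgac
The letters TATAAA of the TATA box stand in 12.4% of 32851 mouse promoters of the same length. The letters TGTTTAC, bound by FOX factors, stand in 3.17% of them. For NKX2 factors CAAGTG was searched, which stands in 11.6% of these promoters. For STAT factors the search was TTCNNNGAA, found in 7.02%, and an NF-kB motif was found in 4.11%. TATAAA stood 29 bases before the start of Bpifa1 and 27 before that of Reg3g, counted from the first base of the motif. Reg3g also had its reverse, TTTATA, 161 bases and an NF-kB match 123 bases before the start. A STAT match lay 194 bases before the start of Scgb3a1, with a match in reverse to the NKX2 letters at 174 bases, and another STAT match 146 bases before the other start of Bpifb1. Aldh1a1, which was not low on irradiated array 1, had the NKX2 letters 115 bases before its other listed start. None of the motifs was in the promoter of Cbr2, before the first listed start of Aldh1a1 or before the first listed start of Bpifb1. A match is a description of letters and no sign of binding.

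The secretoglobins were considered first. Scgb1a1 encodes the main secreted protein of club cells. It had 19.18, 19.19, 19.18 and 19.14 on control arrays 1 to 4 and 19.17, 19.17, 19.15, 19.14 and 19.08 on irradiated arrays 1 to 5 (log2 intensity). All 9 values lay close together and the groups overlapped. The irradiated mean was lower by 0.03 on the log2 scale (difference -0.03, SE 0.07, 95% interval -0.18 to 0.11, limma adjusted p = 0.952). Its SD over the 9 arrays, 0.034, was below that of all but 0.111% of genes, but its probe had ranks 2 to 7 by intensity among all probes on the arrays, where quantile normalization leaves almost no room to vary. Scaled to the 75th percentile of each array instead, Scgb1a1 had 19.40, 19.52, 19.37 and 18.87 on the control arrays and 19.07, 19.23, 18.80, 19.34 and 18.85 on the irradiated arrays, a difference of -0.23 (limma adjusted p = 0.723). The groups overlapped on that scale too. The 10 spots of this probe had an SD of 0.11 to 0.16 on each array, larger than the distance between the groups on the quantile scale. Scgb1a1 was lower in 4 of 4 scan pairs, with differences of -0.06 to -0.01 on that scale.

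Scgb3a1 is a secretoglobin of the larger airways. Its log2 intensity was 17.15, 17.70, 16.74 and 17.13 on the control arrays and 13.24, 16.23, 16.90, 16.33 and 16.68 on the irradiated arrays. The lowest by far was irradiated array 1, 15.3-fold below the control mean, and 4 of the 5 irradiated arrays were below the lowest control array. The difference was -1.30 on the log2 scale (SE 0.66, 95% interval -2.76 to 0.16, limma adjusted p = 0.570). Without irradiated array 1 it was -0.64 (limma adjusted p = 0.268). In the 4 scan pairs the irradiated array was lower by 0.91, 0.80, 0.40 and 0.45 (differences of -0.91, -0.80, -0.40 and -0.45), and with the scan pair as a block the limma adjusted p was 0.0520. As a random block, the pairs gave a difference of -0.90 with a limma adjusted p of 0.247. The 10 spots of the probe (9 on irradiated array 1) differed by an SD of 0.05 to 0.10 within an array, so the low value of irradiated array 1 was shared by its spots.

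Among the enzymes, Cbr2, a carbonyl reductase abundant in mouse club cells, had 18.98, 18.97, 18.91 and 18.85 on the control arrays and 18.89, 18.80, 18.39, 18.26 and 18.55 on the irradiated arrays (log2 intensity). Irradiated array 1 lay among the controls, and arrays 2 to 5 lay below all controls. The difference was -0.35 (SE 0.13, 95% interval -0.64 to -0.06, unadjusted p = 0.0243 and adjusted p = 0.380 by limma). Cbr2 was lower in 4 of 4 scan pairs, by 0.18 to 0.65 (differences of -0.18 to -0.65). When the scan pairs entered as a random block, the difference was -0.39 with a limma adjusted p of 0.0352, which passed, and with the pairs as a fixed block the adjusted p was 0.0929. Under the other alternatives its limma adjusted p did not pass.

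This probe also stood at the top of the intensity scale, with ranks 6 to 44 among all probes. Another Cbr2 probe, A_55_P2122604, gave 17.26, 17.09, 16.74 and 17.05 on the control arrays and 17.15, 16.30, 15.59, 15.43 and 15.79 on the irradiated arrays (log2 intensity). Its order was alike: irradiated array 1 among the controls and arrays 2 to 5 below all of them. Its difference was -0.98 (SE 0.31, limma adjusted p = 0.277), and the mean of both probes gave -0.66 (limma adjusted p = 0.230). Both probes carry the same accession, so they are not independent samples of the RNA. In the authors' normalized table the difference of the brighter probe was -0.10.

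Aldh1a1 encodes a retinaldehyde dehydrogenase that many epithelial cells hold. Its log2 intensity was 17.31, 17.59, 17.52 and 17.70 on the control arrays and 17.67, 17.22, 17.45, 17.14 and 17.34 on the irradiated arrays. The groups overlapped, and irradiated array 1 was near the highest control. The difference was -0.17 (SE 0.12, 95% interval -0.44 to 0.10, limma adjusted p = 0.745). Aldh1a1 was lower in 4 of 4 scan pairs, with differences of -0.38 to -0.09. Aldh1a7, a close relative whose transcript its probe could share, had 14.50 to 15.02 on the control arrays, 14.59 on irradiated array 1 and 13.60 to 14.07 on irradiated arrays 2 to 5, a difference of -0.69 (limma adjusted p = 0.224). It passed as lower without irradiated array 1.

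The gel-forming mucins are encoded by neighboring genes with no other gene between them. Muc5b, the mucin needed for clearance of the mouse airway, had 15.09, 15.99, 14.66 and 14.42 on the control arrays and 11.79, 15.02, 14.99, 14.56 and 14.93 on the irradiated arrays (log2 intensity). The first irradiated array was 9.54-fold below the control mean, while the other irradiated arrays lay within the control range. The difference was -0.78 (SE 0.65, 95% interval -2.23 to 0.66, limma adjusted p = 0.793) and -0.17 without irradiated array 1. It was lower in 3 of 4 scan pairs, with differences of -0.999 to 0.51.

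Muc5ac, the mucin that goblet cells make in inflamed airways, had 9.21, 9.80, 8.64 and 8.04 on the control arrays and 7.36, 10.87, 9.66, 8.77 and 9.25 on the irradiated arrays (log2 intensity). Irradiated array 1 was the lowest of all arrays and irradiated array 2 the highest. Irradiated array 2 was at least 2-fold above the highest control array in Muc5ac and in none of the other 8 genes, against 1.52% of all genes. The difference was 0.26 (SE 0.62, 95% interval -1.12 to 1.64, limma adjusted p = 0.961) and 0.71 without irradiated array 1 (limma adjusted p = 0.724). Its direction turned without control array 4 (-0.04) and without irradiated array 2 (-0.17). It was lower in 1 of 4 scan pairs, with differences of -0.14 to 1.66.

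The BPI-fold proteins and REG3G are secreted defense proteins. Bpifa1, which encodes an abundant surface-active protein of the upper airways, had 17.52, 15.47, 16.67 and 17.80 on the control arrays and 10.09, 14.52, 15.17, 15.58 and 15.51 on the irradiated arrays (log2 intensity). Irradiated array 1 was 109-fold below the control mean, and 3 of the 5 irradiated arrays were below the lowest control array. The difference was -2.69 (SE 1.06, 95% interval -5.05 to -0.32, unadjusted p = 0.0298 and adjusted p = 0.408 by limma). Without irradiated array 1 it was -1.67 (limma adjusted p = 0.173). Bpifa1 was lower in 4 of 4 scan pairs, with differences of -3.00, -0.29, -1.08 and -2.28. The controls themselves spanned 2.33 on the log2 scale, and 96.5% of genes had a smaller SD among the controls.

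Bpifb1 lies close to Bpifa1, with 1 gene, Bpifa5, between them. Its log2 intensity was 15.04, 15.46, 14.60 and 15.41 on the control arrays and 10.59, 14.80, 14.70, 13.95 and 14.33 on the irradiated arrays. A value 23.3-fold below the control mean was found on irradiated array 1, and 3 of the 5 irradiated arrays were below the lowest control. The difference was -1.46 (SE 0.76, 95% interval -3.16 to 0.25, limma adjusted p = 0.592) and -0.68 without irradiated array 1. It was lower in 4 of 4 scan pairs, with differences of -1.08 to -0.23.

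Reg3g encodes a lectin that binds the wall of Gram-positive bacteria. It had 15.78, 15.51, 14.30 and 15.29 on the control arrays and 10.21, 15.19, 15.00, 14.66 and 14.33 on the irradiated arrays (log2 intensity). Irradiated array 1 was 32.2-fold below the control mean, and the other irradiated arrays lay within the control range. The difference was -1.34 (SE 0.92, 95% interval -3.38 to 0.70, limma adjusted p = 0.721) and -0.42 without irradiated array 1. It was lower in 3 of 4 scan pairs, with differences of -0.96 to 0.37. Reg3b, a close relative, was well above background on 0 of 4 control arrays and 1 of 5 irradiated arrays.

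**Figure D2:**
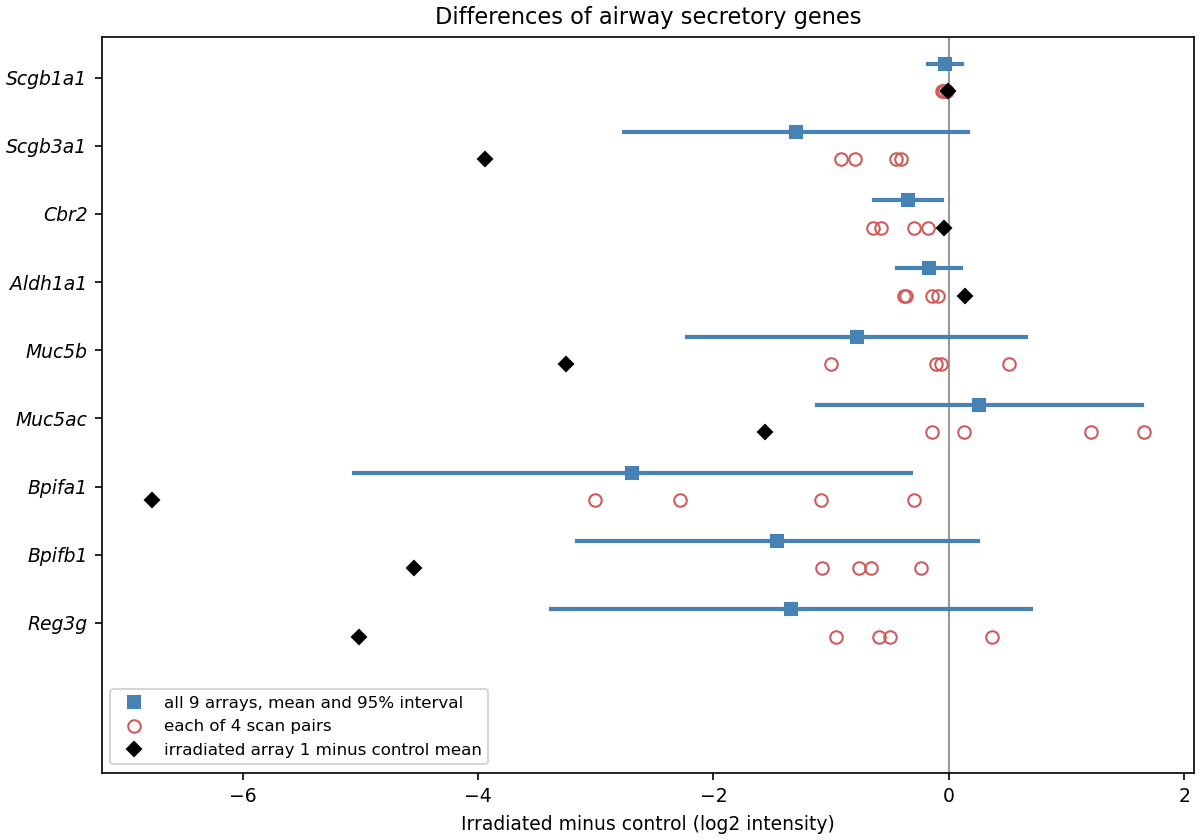
Irradiated minus control log2 intensity (horizontal axis) for each of the 9 genes: squares and bars are the difference over all 9 arrays with its 95% interval, circles are the 4 scan pairs and diamonds are irradiated array 1 minus the control mean. The diamonds of Bpifa1, Reg3g, Bpifb1, Scgb3a1 and Muc5b lie between -6.77 and -3.25, below every circle of the same gene, while those of Scgb1a1, Cbr2 and Aldh1a1 lie near 0.

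How alike the arrays were in these genes was described without a test. The SD over the 9 arrays was 2.26 for Bpifa1, 1.68 for Reg3g, 1.48 for Bpifb1, 1.29 for Scgb3a1 and 1.15 for Muc5b (log2 intensity), and it exceeded that of 99.7%, 99.0%, 98.5%, 97.5% and 96.6% of all genes. It was 1.03 for Muc5ac, above that of 95.3% of genes. Cbr2 had 0.26 and Aldh1a1 0.20, against a median of 0.28 over all genes. Over the 4 control arrays alone, Scgb3a1 and Bpifb1 each had an SD of 0.40, and 73.8% of genes had a smaller one. The same SD was 1.05 for Bpifa1, 0.75 for Muc5ac, 0.69 for Muc5b and 0.65 for Reg3g. These exceeded the SD of 96.5%, 92.5%, 91.1% and 89.9% of genes.

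The genes whose profile over the 9 arrays was nearest to that of Reg3g, by the root mean square difference of centred log2 intensities among 15696 genes, were Bpifb1 (0.39), Mybpc3 (0.46), Myl4 (0.48), Tnni3 (0.50) and Myoz2 (0.51). Scgb3a1 had rank 7 and Muc5b rank 9 among these genes. For Bpifa1, they were Nppa (1.02), Reg3g (1.08), Bpifb1 (1.10), Mybpc3 (1.12) and Myl7 (1.12). Apart from Reg3g and Bpifb1, all of these encode proteins of heart muscle, which in the mouse also lines the pulmonary veins: contractile proteins, their regulators and, for Nppa, a hormone of the atria. All these profiles share the same 9 arrays and a low irradiated array 1. Scgb1a1, Cbr2 and Aldh1a1 had ranks of 4828 to 10792 beside Reg3g.

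Heart muscle genes were therefore listed after their values were seen. All 12 of them (Myh6, Myl4, Myl7, Nppa, Tnni3, Tnnt2, Mybpc3, Actc1, Sln, Myoz2, Ryr2 and Pln) were lower on irradiated array 1 than on every other array. Their mean log2 intensity was 12.60 to 13.76 on the control arrays and 7.86 on irradiated array 1, where it was 5.31 below the control mean. On irradiated arrays 2 to 5 it was between 0.47 below and 0.43 above the control mean (differences of -0.47 to 0.43). Myh6, the heavy chain of atrial and adult ventricular myosin, had 15.87 to 16.98 on the control arrays and 7.33 on irradiated array 1. Actc1, the brightest of the list, had 15.66 to 16.21 on the control arrays and 13.24 on irradiated array 1. None of the 12 passed the test between the groups. What part the tissue taken for irradiated array 1 had in its low secretory genes was not tested.

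Markers of other airway cells were set beside these values. The 15 ciliated cell genes had a mean of 0.25 below the control mean on irradiated array 1 (-0.25). This was within the -0.34 to 0.04 of irradiated arrays 2 to 5 and below the -0.20 to 0.33 of the control arrays. Mcidas, the brightest of these genes, switches on the multiciliated program. It had 14.95 on irradiated array 1 against 15.60 to 16.13 on the control arrays. The 8 basal cell genes had a mean of -1.64 relative to the control mean on irradiated array 1, of -1.39 to -0.53 on the other irradiated arrays and of -0.69 to 0.75 on the control arrays. All 8 basal genes had a difference below 0, with a median of -0.64, and none passed without a block. In the random scan pair block, 2 of the 8 basal genes (Krt15 and Aqp3) and 2 of the 15 ciliated genes (Tekt4 and Mcidas) passed as lower, against 7.38% of all probes in either direction, and with a fixed block none of either list did. The brightest, Trp63, had a difference of -0.18 (limma adjusted p = 0.853). Control array 3, the highest in the basal list, was also 3.37 above the control mean in 10 genes of squamous epithelium. The part of these cells in the differences above was not tested.

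Taken as a mean, the genes of mucus folding, processing and release were low beside Muc5b on irradiated array 1. The mean of 23 such genes was 0.87 below the control mean there (-0.87) and 0.18 to 0.36 above it on irradiated arrays 2 to 5, with -0.34 to 0.38 on the control arrays. Of the 23, 11 were lower on irradiated array 1 than on all other arrays. The same held for 2 of the 15 ciliated and 4 of the 8 basal cell genes. The share of all genes that were lowest on irradiated array 1 was not counted, so these counts are a description. None of the 23 passed with all arrays and no block, and their median difference was -0.02. Without irradiated array 1, 1 of them, Agr2, passed as higher, against 0.73% of all probes. With either scan pair block 1 of the 23, Tff2, a trefoil peptide secreted with mucins, passed as lower. Of all probes, 2.8% passed with the fixed and 7.38% with the random block, in either direction. Vamp8, which drives the fusion of mucin granules and was the brightest, had a difference of -0.02 (limma adjusted p = 0.995). Among 7 other mucin genes none passed with all arrays and no block. Muc4, a membrane mucin and the brightest of these, had 12.26 to 13.30 on the control arrays, 12.96 on irradiated array 1 and 13.87 to 14.30 on irradiated arrays 2 to 5, a difference of 1.03 (SE 0.28, limma adjusted p = 0.193). Muc4 passed as higher without irradiated array 1. It also passed as higher with the scan pair as a fixed or a random block, against the same 2.8% and 7.38% of all probes.

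The mean of 21 further antimicrobial and defense genes of epithelia was -0.58 on irradiated array 1 and 0.20 to 0.42 on the other irradiated arrays, relative to the control mean, with -0.28 to 0.48 on the control arrays. Of the 21 genes, 12 were well above background on all 9 arrays and 2 on none, so this mean also holds values near background. None passed with all arrays and no block, and 2, Lcn2 and Il6, passed as higher without irradiated array 1, against 0.73% of all probes. With the scan pair as a block, these 2 passed as higher with a fixed block, against 2.8% of all probes, and 5 of the 21 passed with a random block, 2 of them lower, against 7.38%. Wfdc2, a secreted protease inhibitor and the brightest of them, differed by 0.09 (limma adjusted p = 0.858). Among 23 regulators of secretory cells none passed without a block, with a median difference of -0.14. With the scan pair as a fixed block 3 of the 23 passed (Foxa1, Notch2 and Myd88), 2 of them lower and 1 higher, against 2.8% of all probes. With the random block 2 of the 23 passed (Foxa1 and Notch2), each as lower, against 7.38% of all probes in either direction. Stat3, which relays cytokine signals, was the brightest and differed by 0.20 (limma adjusted p = 0.737).

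**Figure D3:**
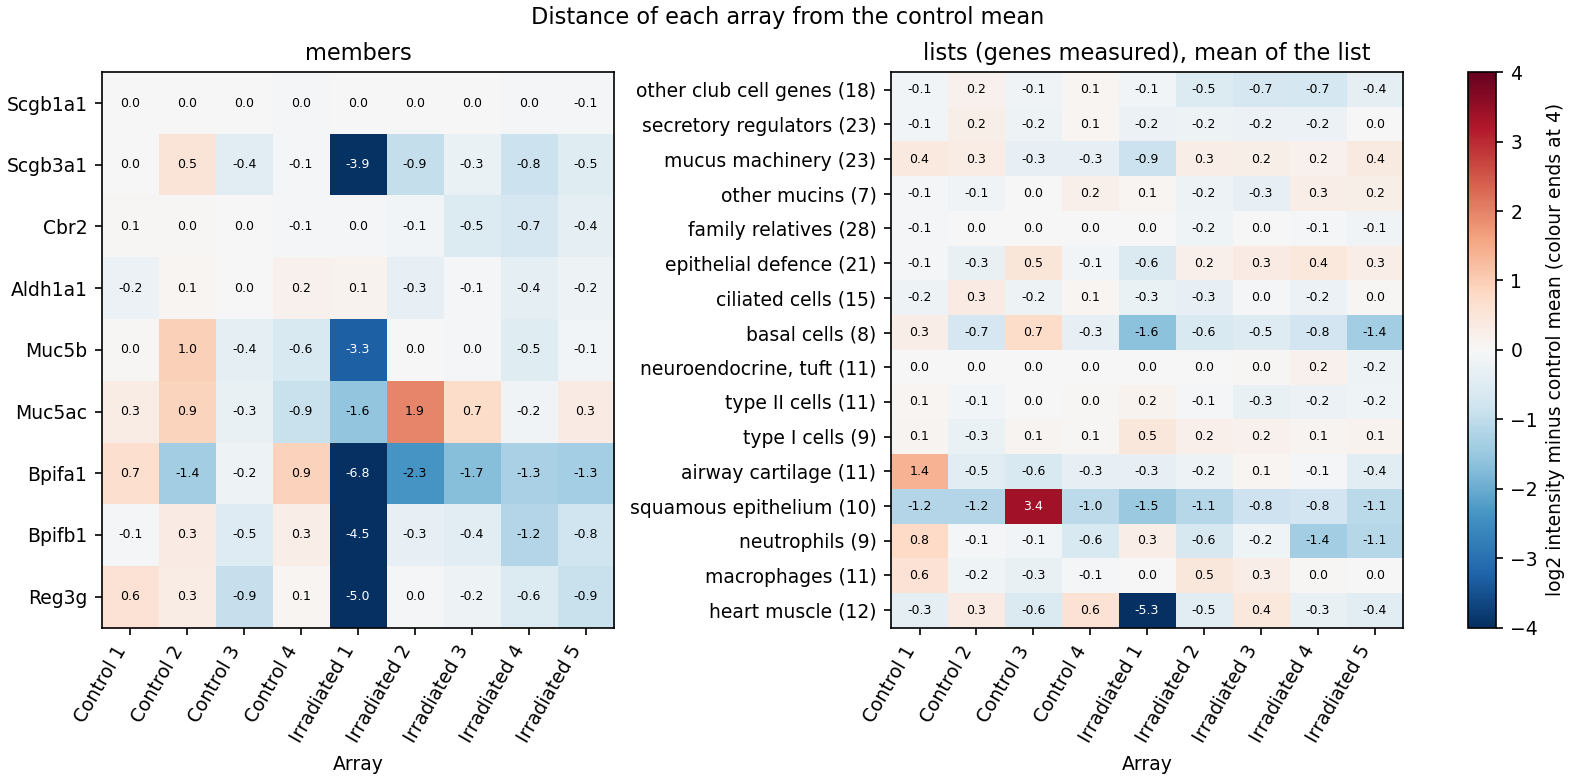
Log2 intensity minus the control mean for each array (columns) in the 9 genes (left) and as the mean of each list of other genes (right, with the number of genes measured); blue is below and red above the control mean, and colors end at 4. Irradiated array 1 is at -5.31 in the heart muscle list and at -6.77 in Bpifa1, while its ciliated cell list is at -0.25.

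Other genes of club cells were set beside the members. Of 18 such genes reported here, 2 passed the test, both lower: Lypd2 and Chad, against 0.149% of all genes that passed lower. The difference was below 0 in 15 of the 18, with a median of -0.29 against 0.01 over all genes, and 9 had an unadjusted p under 0.05, against 12% of all genes. In 6 of the 18 the groups did not overlap, against 4.96% of all genes. The mean of the 18 was -0.12 on irradiated array 1 and -0.71 to -0.36 on irradiated arrays 2 to 5, relative to the control mean, with -0.14 to 0.16 on the control arrays. Without irradiated array 1, 6 of the 18 passed, 5 of them lower, while the share of all probes that passed rose to 1.21%, with 0.481% lower. With the scan pair as a fixed block 7 of the 18 passed, against 2.8% of all probes. Of these, 6 were lower, Cyp2f2 among them, and Upk3a was higher. As a random block, the pairs gave 10 of the 18, against 7.38% of all probes. With the replicate number as a block, 0 of the 18 passed.

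Lypd2, a membrane-anchored protein of the Ly6 family, had 14.35, 14.53, 14.04 and 14.37 on the control arrays and 12.28, 12.70, 12.43, 12.01 and 12.80 on the irradiated arrays (log2 intensity). All irradiated arrays were below all control arrays, and the difference was -1.88 (SE 0.17, limma adjusted p = 0.00664). It passed without each array in turn, with an adjusted p of at most 0.0475, but not with the replicate number as a block (limma adjusted p = 0.0815).

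Chad, a leucine-rich matrix protein known from cartilage, had 11.53, 11.67, 10.79 and 11.48 on the control arrays and 9.57, 10.20, 9.55, 9.10 and 9.82 on the irradiated arrays (log2 intensity). All irradiated arrays were below all control arrays, and the difference was -1.72 (SE 0.24, limma adjusted p = 0.0312). It passed without irradiated array 1 or 2 and no longer without any other array, with an adjusted p of up to 0.103. It did not pass in the authors' table (difference -1.31, limma adjusted p = 0.258), without an intensity trend in the variance (limma adjusted p = 0.0507) or with the replicate number as a block (limma adjusted p = 0.258). The 11 genes of airway cartilage, which hold no Chad, were on average at 1.39 above the control mean on control array 1 and between -0.62 and 0.08 on all other arrays, and none of them passed.

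Cyp2f2, a cytochrome P450 that activates naphthalene and the brightest of the list, had 18.28, 18.40, 18.36 and 18.30 on the control arrays and 18.09, 17.62, 17.52, 17.65 and 17.99 on the irradiated arrays (log2 intensity). The groups did not overlap, but the difference of -0.56 (SE 0.12) did not pass with all arrays and no block (limma adjusted p = 0.110). Upk3a, which marks a subset of club cells near neuroendocrine bodies, spanned 6.92 to 7.61 among the controls and 8.07 to 9.04 among the irradiated arrays, a difference of 1.34 (limma adjusted p = 0.0524). It was named after its value was seen, as the member of the list with the largest difference above 0.

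**Figure D4:**
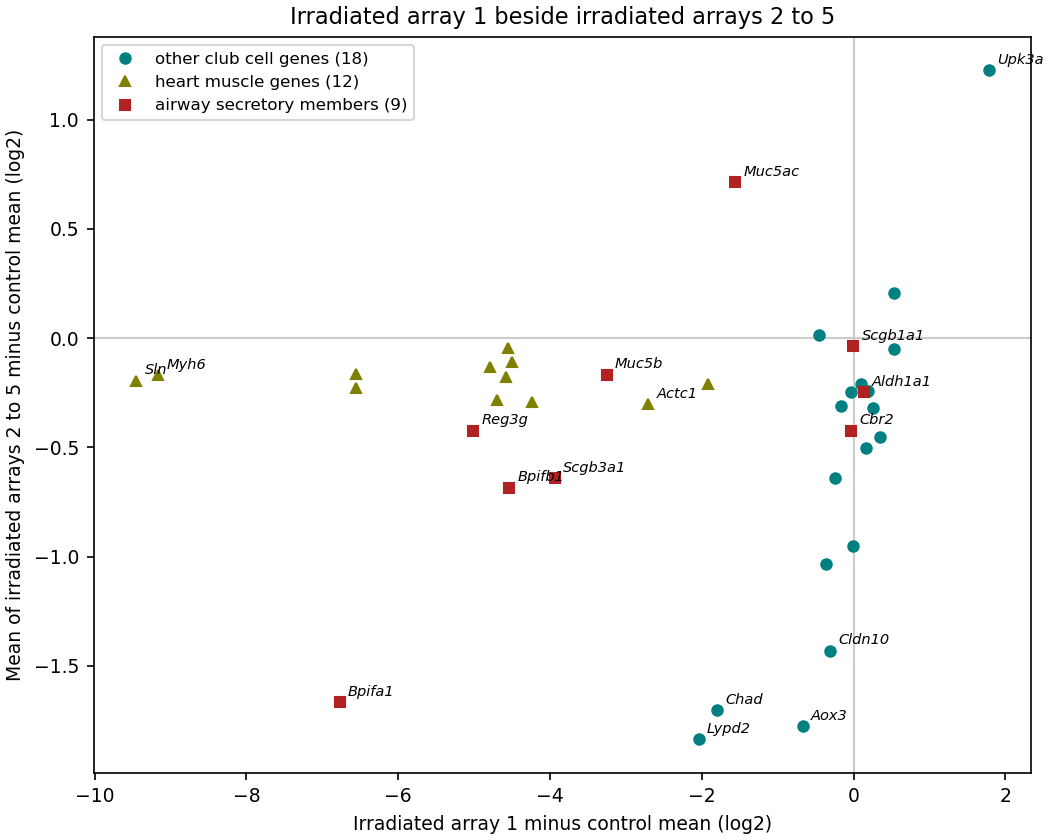
Each point is a gene, with irradiated array 1 minus the control mean on the horizontal axis and the mean of irradiated arrays 2 to 5 minus the control mean on the vertical axis (log2 intensity). Heart muscle genes and Scgb3a1, Muc5b, Bpifa1, Bpifb1 and Reg3g lie to the left, whereas Lypd2 and Chad lie near the bottom and Scgb1a1, Cbr2 and Aldh1a1 near 0 on the horizontal axis.

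The relatives of these genes in the secretoglobin, reductase, dehydrogenase, BPI-fold and Reg families held 28 measured genes, of which 1 passed, higher, against 0.245% of all genes that passed higher. It was Bpifa2, a BPI-fold protein known from saliva, with 5.96, 5.44, 5.44 and 5.37 on the control arrays and 7.50, 7.09, 7.73, 7.87 and 7.38 on the irradiated arrays (log2 intensity). All irradiated arrays were above all control arrays and the probe was well above background on all 9. The difference was 1.96 (SE 0.21, limma adjusted p = 0.0161), opposite in sign to those of Bpifa1 and Bpifb1. It no longer passed without control array 2, 3 or 4 or without irradiated array 3, with an adjusted p of up to 0.0875. Nor did it pass with the replicate number as a block (limma adjusted p = 0.258). Normexp background correction gave a difference of 1.10, which passed (limma adjusted p = 0.0208), and the authors' table one of 1.08, which did not (limma adjusted p = 0.251). The median difference of the 28 relatives was -0.02. Without irradiated array 1, 4 of the 28 passed, Bpifa2 as higher and Scgb1c1, Aldh1a7 and Aldh3a1 as lower, against 0.73% of all probes higher and 0.481% lower. The fixed scan pair block called 3 of the 28, 2 of them higher, against 2.8% of all probes, and the random one 9, 3 of them higher, against 7.38%.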

How the data were processed

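Total RNA of mouse lung was labeled and hybridized to Agilent whole mouse genome arrays with 1 color. The authors deposited spot intensity values from Agilent's Feature Extraction software, not normalized between arrays. These are a background-corrected processed signal, the medians of spot and local background, and marks for saturated, outlying and well-detected spots. A quantile-normalized intensity table that the authors deposited served as an alternative. The version of the software is not given in the sources used here.

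Control spots and outlier spots were left out. A probe was kept when its median signal exceeded 1.4 times the local background on 4 or more arrays (39303 of 39429). The log2 processed signals were quantile normalized, and spots of a probe were averaged. Accessions were named through the RefSeq gene table of GRCm38.p6, used for names and neighbors: 27451 probes (69.6%) got a symbol. The array files carry 2 versions of the accession list, and 109 probes that these named differently stayed unnamed. Each gene was represented by its brightest probe.

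The groups were compared with limma (version 3.58.1, R 4.3.3), the prior variance following intensity, and Benjamini-Hochberg adjustment over all probes, at an adjusted p under 0.05, after the step was tested on simulated data. Lists were described by counts and medians; 1 gene of the club cell list is not reported here and was left out of that list's counts. Named were all members, their other probes and near relatives, the list genes that passed or else the brightest, and the 5 nearest profiles of the 2 members with the largest SD. The members and the lists were chosen with earlier results of these data known.

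Replicate numbers did not pair the arrays: the deviations of same-numbered arrays from their group means correlated by 0.10, -0.02, -0.00 and -0.16 across probes. Scan pairs were read from spot positions on the scanner image and correlated by 0.32, 0.17, 0.33 and 0.44. As alternatives, the background was corrected by normexp (offset 50), arrays were scaled to their 75th percentile, and the following were tried: the filter on all 9 arrays or none, the authors' table, each array left out, the replicate block, the scan pair as a fixed or a random block, no intensity trend, array weights, an adjusted p under 0.01 and the mean of the probes of a gene. Their use on the lists was added after the data were seen.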

Additional observations from a re-analysis of the deposited data

Results flagged for a closer look

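Dixon's test was applied to 48 groups of 4 or 5 arrays, over the 9 genes and 15 lists; the heart muscle list, chosen for its values, was not tested. It marked 1 array as remote from the rest in 12 of the 48, whereas about 5% would be marked by chance. The members and lists were not chosen blind to these arrays and many lists share cells, so the share marked is a description. Irradiated array 1 was the marked array in 8 of the 12. It was the lowest irradiated array in Scgb3a1 (13.24, the others 16.23 to 16.90), Muc5b (11.79, the others 14.56 to 15.02), Bpifa1 (10.09, the others 14.52 to 15.58), Bpifb1 (10.59, the others 13.95 to 14.80) and Reg3g (10.21, the others 14.33 to 15.19), in log2 intensity.

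The other values are means of a list relative to the control mean, on the log2 scale. Of the genes, 18 of 23 in mucus machinery and 12 of 21 in epithelial defense were well above background on all 9 arrays. In cartilage it was 6 of 11 and in squamous epithelium 4 of 10, so these means also hold values near background. Irradiated array 1 was the lowest irradiated array in mucus machinery (-0.87) and in epithelial defense genes (-0.58), and the highest in type I cell genes (0.45, the others 0.10 to 0.19). Irradiated array 5 was the highest in the regulators of secretory cells (0.0225, the others -0.25 to -0.21). Control array 2 was the lowest control array in type I cell genes (-0.27), control array 1 the highest in cartilage genes (1.39), and control array 3 the highest in squamous epithelium genes (3.37, the others -1.17 to -1.04).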

How the results depend on the processing

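The 131 probes that passed over the whole array became 197 with the filter on all 9 arrays, 44 with the authors' table, 44 without an intensity trend in the variance, 5 at the stricter adjusted p of 0.01 and 5 to 476 with each array left out. The replicate block left 1 probe, 0 of the 9 secretory genes and 0 list genes. The scan pair gave 1099 probes as a fixed block and 2899 as a random block. Of the 9 secretory genes, 1 (Cbr2, lower, adjusted p = 0.0352) passed with the random block and 0 under each other alternative, array left out or not. The 3 list genes that passed became 5 with scaling to the 75th percentile, 6 with the filter on all 9 arrays, 22 and 41 with the fixed and random scan pair block, 6 with array weights, 1 at an adjusted p under 0.01, 7 with the mean of probes, and 1 to 16 with each array left out. The cause of these shifts was not tested. Muc5ac turned direction without control array 4 (-0.04) and without irradiated array 2 (-0.17), in a range up to 0.71 without irradiated array 1. No other difference of the 9 genes or of Lypd2, Chad and Bpifa2 turned under any alternative run. Of 60 values of Lypd2, Chad and Bpifa2 under the alternatives, 17 no longer passed, with the direction kept. Scaling to the 75th percentile moved the median of all probes to -0.07.

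The groups are small, no dose, region or time is labeled, and 1 irradiated array decides much of the difference of 5 genes. For the brightest probes, quantile normalization limits what can be seen.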

Other observations

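Outside the airway lining, among 11 genes of type II cells, which make surfactant, none passed without a block and the median difference was -0.04. With the scan pair as a fixed or a random block, 2 of the 11 passed as lower each time, Slc34a2 in both, against 2.8% and 7.38% of all probes in either direction. Sftpc, the brightest, lay at 19.36 or 19.43 on every array (log2 intensity), at the top of the scale. Among 9 genes of type I cells, which form the gas exchange surface, none passed and the median was 0.20. Emp2, a membrane protein and the brightest, differed by 0.20 (limma adjusted p = 0.706).

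Of 11 macrophage genes none passed with all arrays, no block and the brightest probe of each gene. There, 6 had an unadjusted p under 0.05, against 12% of all genes, and the median difference was 0.60. The difference was below 0 in 4 of the 11, Fabp4 (-1.59), Marco (-0.63), Siglecf (-0.47) and Ear1 (-0.34). Passing as higher were 2, Adgre1 and Itgax, without irradiated array 1, against 0.73% of all probes, 1, Mrc1, without control array 1 and also when the probes of each gene were averaged, 3 with the scan pair as a fixed block (Adgre1, C1qa and C1qb, against 2.8% of all probes in either direction) and 5 as a random block (Adgre1, Mrc1, Itgax, C1qa and C1qb, against 7.38%). Chil3, a chitinase-like protein of alveolar macrophages and the brightest, spanned 16.37 to 18.07 among the controls and 17.07 to 18.18 among the irradiated arrays, so the groups overlapped. Of 9 neutrophil genes none passed without a block, and the median difference was -0.45. With each array left out in turn, the median ranged from -0.75 (without control array 2) to -0.21 (without control array 1). With the random scan pair block 2 of the 9 genes, Ngp and Camp, passed as lower, against 7.38% of all probes in either direction. Csf3r, the receptor for granulocyte colony-stimulating factor and the brightest, differed by -0.20. Among 11 neuroendocrine and tuft cell genes none passed without a block. With the random scan pair block 1 of the 11, Dclk1, passed as higher, against 7.38% of all probes in either direction. Syp, a protein of secretory vesicles and the brightest of the 11, differed by -0.16. Among 10 squamous epithelium genes none passed, and Tgm3, which crosslinks the cell envelope and was the brightest, differed by -0.12. Comp, a cartilage matrix protein and the brightest of its list, had 9.36 on control array 1 and 5.71 to 6.93 on the other control arrays.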
